A study of Mus musculus with 4 samples.

Results

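The 10 genes of the m6A methylation machinery that write or erase N6-methyladenosine were examined in mouse ESCs depleted of CNOT1, out of 50559 genes listed with counts. They were chosen by name, with earlier results of these data known, and the rule used no measured value: Mettl3, Mettl14, Wtap, Virma, Zc3h13, Rbm15, Rbm15b and Cbll1 for the methyltransferase complex, and Fto and Alkbh5 for the demethylases. E14 mouse ESCs, a feeder-free pluripotent line derived from the inner cell mass, were grown with LIF and transfected with a non-targeting siRNA (siNT) or with an siRNA against Cnot1 (siCnot1), at 150 nM, and collected after 48 h. Poly(A)+ RNA was sequenced from 2 biological replicates per group, 4 libraries in all. The methods of the study describe ESCs that carry a tdTomato transgene driven by the MERVL promoter, list a pair of siRNAs against Cnot1, and do not say which siRNA was used here, so loss of Cnot1 and an effect of that siRNA preparation cannot be told apart.

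In mRNA, m6A is deposited in the nucleus by a METTL3-METTL14 heterodimer, the m6A-METTL complex (MAC), in which METTL3 is the catalytic subunit and METTL14 holds the RNA. A second set of subunits, the MAC-associated complex (MACOM), comprises WTAP, VIRMA, ZC3H13, the E3 ligase HAKAI encoded by Cbll1, and the RNA-binding adaptors RBM15 and RBM15B, and it directs the heterodimer to its sites. The AlkB-type dioxygenases FTO and ALKBH5 remove methyl groups. Methylated mRNAs are bound by YTHDF proteins, and YTHDF2 recruits the CCR4-NOT deadenylase through CNOT1, the subunit depleted here. In ESCs, m6A shortens the life of pluripotency mRNAs and loss of the writers delays exit from self-renewal.

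Totals on genes lay between 32135824 and 32557440 counts, and 3 counts, the floor below which a level was not read, corresponded to 0.0921 to 0.0934 CPM (counts relative to the total of the library). Cnot1 was at 912 and 985 CPM in the siNT libraries and at 185 and 192 in the siCnot1 libraries after TMM scaling, 19.8% of the control level. Pluripotency markers were present throughout, and 7 of the 9 listed were lower in siCnot1, against 14.7% of all tested genes and 30.9% of genes at or above the level of Mettl3. These markers lay at percentiles 94.7 to 99.7 of mean level among tested genes, a range for which no share was taken. Log2 fold changes over all 9 ran from -0.45 to -0.082, and the sum went from 7448 to 7712 CPM in siNT to 6213 to 6507 in siCnot1. Of 9 markers of the 2-cell-like state, 6 were higher, against 15% of all tested genes. The summed level of the 9 went from 66.1 to 68.3 CPM in siNT to 174.5 to 180.1 CPM in siCnot1. Of the 6, Tcstv1 had 1 and 2 counts in siNT, below the floor, and 11 in each siCnot1 library. The 6 also include paralogs of the Zscan4 cluster, so they are not separate markers. The 6 fibroblast markers summed to 8.74 to 12.1 CPM in siNT and 12.8 to 13.3 in siCnot1, with Col3a1 and Dcn at 0 counts in every library. Only 3 of the 6 passed the filter on low counts, and 1 of them, Col1a1, was higher (2.64-fold, edgeR adjusted p = 0.000541). Primitive endoderm markers summed to 12.6 to 14.8 CPM in siNT and 22.1 to 22.9 in siCnot1, with 2 of 6 higher. Trophectoderm markers went from 95.1 to 95.7 CPM in siNT down to 67.7 to 74.5 in siCnot1. Of the 6 tested, 3 were called lower, and 2 had log2 fold changes above 0. Tfap2c alone held 57.8 and 58.5 CPM of that sum in siNT and 42.4 and 40.8 in siCnot1. Early germ layer markers went from 13.8 to 14.0 down to 9.55 to 11.2, with 1 of the 3 tested lower and T at 0 counts in every library. Mitochondrial genes took 1.17% and 1.4% of counts in the siNT libraries and 2.11% and 1.76% in the siCnot1 libraries. The part of these shifts in the results below was not tested. In bulk RNA, fewer cells of a kind and less RNA per cell cannot be told apart.

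All 10 genes were expressed at levels that allowed a test, and 4 of them changed, by at most 25.1%. Mean levels over the 4 libraries lay between percentiles 67.8 and 90.6 of the 18144 genes with enough counts to be tested. Log2 fold changes (siCnot1 over siNT) ran from -0.25 for Alkbh5 to 0.32 for Rbm15, with a median of -0.032 against 0.0084 for all tested genes. Rbm15 and Zc3h13 rose, and Wtap and Alkbh5 fell, where a call means p below 0.05 after Benjamini-Hochberg adjustment over all tested genes (quasi-likelihood fit in edgeR). The other 6 did not pass. Among all tested genes 15% were higher and 14.7% lower at the same threshold, so 2 of 10 in each direction was near the background. Genes expressed at or above the lowest of the 10, Mettl3, were called higher in 14.1% of cases and lower in 30.9%, and their median log2 fold change was -0.074. With the cut-offs of the study (raw p no higher than 0.05, change of 2-fold or more), none of the 10 was called in either direction, against 6.18% of all tested genes higher and 1.80% lower. The 95% intervals of the 10 fold changes spanned 0.759-fold to 1.41-fold at their extremes, so that a 2-fold change lay outside every one of them.

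**Figure D1:**
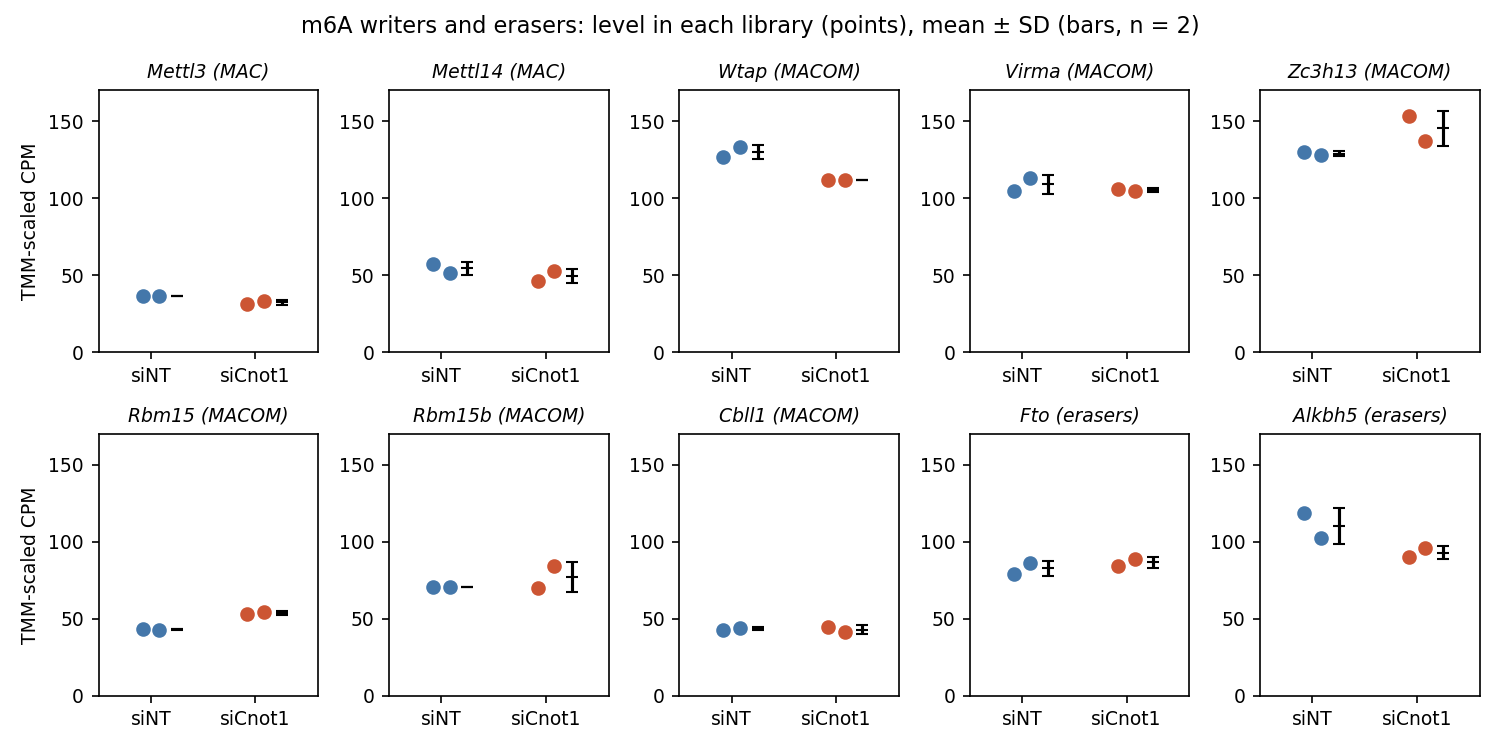
TMM-scaled CPM (y axis, from 0) of the 10 genes in each siNT and siCnot1 library (points), with the mean and SD of each group (bars, n = 2). The groups stand apart, with both siCnot1 libraries on the same side of both siNT libraries, for Zc3h13 and Rbm15 upward and for Mettl3, Wtap and Alkbh5 downward.

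The groups did not overlap for 5 of the 10 genes. In both siCnot1 libraries Rbm15 and Zc3h13 were above both siNT libraries, as were 32.7% of all tested genes. Mettl3, Wtap and Alkbh5 were below in both, as were 31.2% of all tested genes. Again the counts were close to those of all genes. The summed counts of the 10 genes made up 0.0779% and 0.0781% of the siNT libraries and 0.0825% and 0.0831% of the siCnot1 libraries before scaling. After TMM scaling the direction of their sum was turned, with 808.1 to 810.4 CPM in siNT and 791.1 to 805.1 in siCnot1.

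CNOT1 is brought to mRNAs by RNA-binding proteins as well as by YTHDF2. Among them, Pumilio proteins bind the motif TGTANATA and proteins of the ZFP36 family bind AU-rich elements such as TATTTAT. The transcript strand of the longest annotated 3′ UTR of each gene (GENCODE M21, GRCm38) was searched for both motifs. The matches are shown because they are where these recruiters of the deadenylase could bind, with the motif in capitals, from 5′ to 3′. All 10 genes had an annotated 3′ UTR. TGTANATA was matched once in each of 5 genes.

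Mettl3 (chr14:52294874-52294903, minus strand): gtcccctacccTGTATATAaataaataaaa
Mettl14 (chr3:123369993-123370022, minus strand): gggaagatataTGTATATActttattaacc
Wtap (chr17:12974529-12974558, minus strand): gttgtggaaacTGTAGATAaccttaaccaa
Virma (chr4:11549879-11549908, plus strand): gtacgtatgttTGTATATAtttttcccatt
Alkbh5 (chr11:60557033-60557062, plus strand): ttaactgtaagTGTAAATAacatgtacagt

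TATTTAT was matched in 4 genes, Wtap and Cbll1 with 2 matches each, Virma and Rbm15b with 1 each. The matches of Virma and Rbm15b are shown, the first because it follows that gene's TGTANATA match closely and the second because it is the match of an adaptor.

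Virma (chr4:11549906-11549935, plus strand): attttatatggTATTTATttagaaagtttc
Rbm15b (chr9:106881425-106881454, minus strand): aattaactttgTATTTATttgggaaggaga

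The motifs did not overlap each other in Virma, although the printed windows do. Zc3h13, Rbm15 and Fto held neither. The 5 genes with TGTANATA all had log2 fold changes below 0, and 1 of the 5 without it, Cbll1, did. This split was noticed after the values were known and was not tested. The signs of Virma, Cbll1 and Rbm15b turned in some of the other fits described below. Over all genes at or above the level of Mettl3, the median log2 fold change was itself below 0, at -0.074. For TATTTAT, 3 of the 4 genes with a match and 3 of the 6 without one were below 0. Among the 13966 tested genes with an annotated 3′ UTR, the 3563 with a TGTANATA match had a median log2 fold change of 0.028, with 20.1% called higher and 15.7% lower. The 10403 without one had a median of 0.018, with 16.6% higher and 16.7% lower. The 4124 genes with a TATTTAT match had a median of 0.047 and the 9842 without one a median of 0.0092. Genes with a TGTANATA match also had longer 3′ UTRs, with a median of 2178 bases against 875, as had those with TATTTAT, with 2102 against 834. Among 3′ UTRs close in length to that of each gene, the share holding TGTANATA was 5.1% for Mettl3 (171 bases), 19.4% for Virma (985 bases), 41.2% for Wtap (2607 bases), 51.5% for Alkbh5 (4097 bases) and 68.7% for Mettl14 (6439 bases). The corresponding shares holding TATTTAT were 24.8% for Virma, 44.6% for Cbll1 (2450 bases), 46.7% for Wtap and 54.9% for Rbm15b (3386 bases). A match describes the annotated letters and not binding. The Mettl14 match lies at base 4725 of its 3′ UTR, while the deposited model of Mettl14 holds 2625 exon bases in all.

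Neither gene of the catalytic heterodimer passed the test. Mettl3 (chromosome 14, 52532298 to 52548555, minus strand, in the deposited positions, inferred to be GRCm39 and not comparable with the GRCm38 positions of the matches above) was at 36.6 CPM in both siNT libraries and at 31.3 and 33.4 in the siCnot1 libraries. Both siCnot1 values lay below both siNT values, and the log2 fold change was -0.18 (SE 0.0924, edgeR adjusted p = 0.161, 95% interval -0.37 to 0.014). Mettl14 (chromosome 3, 123161944 to 123179639, minus strand) was at 57.2 and 51.6 CPM in siNT and at 46.3 and 52.8 in siCnot1. The groups overlapped, since the higher siCnot1 library exceeded the lower siNT library, and the log2 fold change was -0.13 (SE 0.0874, edgeR adjusted p = 0.27, 95% interval -0.32 to 0.046). The ratio of Mettl3 to Mettl14 within a library was taken per kilobase of listed exon, and no scaling between libraries can move it. On the log2 scale it was -2.20 ± 0.104 for siNT (SD, n = 2) and -2.24 ± 0.069 for siCnot1 (SD, n = 2). Its level rests on the listed lengths. With lengths of the longest coding transcript, Mettl3 was at 18.1 and Mettl14 at 7.56 CPM per kilobase in siNT. The difference of the ratio between groups does not depend on the lengths. The difference of -0.042 was smaller than the spread between replicates, and it ran from -0.12 without siNT replicate 1 to 0.032 without siNT replicate 2.

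Of the MACOM adaptors, Rbm15 showed the largest change of the 10 genes. RBM15 binds RNA and brings the methyltransferase to its targets, Xist among them. Rbm15 (chromosome 3, 107212827 to 107244102, minus strand) was at 43.4 and 42.6 CPM in siNT and at 52.9 and 54.7 in siCnot1. The siCnot1 libraries were both higher, and the rise was 25.1%, a log2 fold change of 0.32 (SE 0.0826, edgeR adjusted p = 0.00444, 95% interval 0.15 to 0.49). The listed model of Rbm15 holds 27366 exon bases, against 4343 for its longest coding transcript. Its count can thus hold reads from outside that transcript, and their part in the rise was not tested. Its paralog Rbm15b (chromosome 9, 106758127 to 106764274, minus strand), a gene of 1 exon, was at 70.6 and 70.4 CPM in siNT and at 70.2 and 84.2 in siCnot1. Only siCnot1 replicate 2 was higher, and the log2 fold change was 0.13 (SE 0.0794, edgeR adjusted p = 0.232). Without siCnot1 replicate 2 it was -0.013 and without siCnot1 replicate 1 it was 0.25, so the value for Rbm15b turned on which library was used. The log2 ratio of Rbm15 to Rbm15b per kilobase of listed exon was -2.87 ± 0.018 for siNT (SD, n = 2) and -2.67 ± 0.153 for siCnot1 (SD, n = 2). The level of this ratio also rests on the listed lengths, but its difference between groups does not. With lengths of the longest coding transcript, Rbm15 was at 9.90 and Rbm15b at 10.8 CPM per kilobase in siNT. Both siCnot1 libraries were above both siNT libraries in that ratio, by 0.20 on average, but by 0.090 without siCnot1 replicate 1 and by 0.31 without siCnot1 replicate 2.

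Zc3h13 also rose, and Wtap fell. ZC3H13 anchors the complex in the nucleus, and in mouse ESCs its loss lowers m6A. Zc3h13 (chromosome 14, 75521746 to 75581873, plus strand) was at 130 and 128 CPM in siNT and at 153 and 137 in siCnot1. Both siCnot1 libraries were higher, and they differed from each other by more than the lower of them differed from siNT. The rise was 12.6%, a log2 fold change of 0.17 (SE 0.0642, edgeR adjusted p = 0.0468). WTAP bridges the heterodimer to the rest of the complex. Wtap (chromosome 17, 13185686 to 13211430, minus strand) was at 127 and 133 CPM in siNT and at 112 in both siCnot1 libraries. It fell by 14.1%, a log2 fold change of -0.22 (SE 0.0615, edgeR adjusted p = 0.00894, 95% interval -0.35 to -0.092).

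The scaffold Virma and the ligase gene Cbll1 did not pass the test. VIRMA is the largest subunit and is known for directing methylation toward the 3′ end of mRNAs. Virma (chromosome 4, 11485958 to 11551143, plus strand) was at 105 and 113 CPM in siNT and at 106 and 105 in siCnot1. The groups overlapped, with a log2 fold change of -0.047 and a 95% interval from -0.18 to 0.085 (adjusted p = 0.632 from edgeR). Cbll1 (chromosome 12, 31534828 to 31550675, minus strand) was at 42.7 and 44.2 CPM in siNT and at 44.9 and 41.1 in siCnot1, with a log2 fold change of -0.016 and a 95% interval from -0.20 to 0.17 (adjusted p = 0.919 from edgeR). Summed per kilobase, MACOM over MAC was at a log2 ratio of 1.57 ± 0.112 for siNT (SD, n = 2) and 1.73 ± 0.135 for siCnot1 (SD, n = 2), and the groups overlapped. The level of this ratio rests on the listed lengths, and for sums the difference between groups does too. The difference was 0.16 with either set of lengths and 0.18 when counts were not divided by length. That difference ran from 0.060 without siCnot1 replicate 1 to 0.25 without siCnot1 replicate 2, with 0.077 without siNT replicate 1 and 0.24 without siNT replicate 2.

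Of the erasers, Alkbh5 fell and Fto did not pass the test. ALKBH5 is the demethylase that acts on m6A in nuclear mRNA, and FTO also acts on m6Am beside the cap. Alkbh5 (chromosome 11, 60428509 to 60449338, plus strand) was at 119 and 102 CPM in siNT and at 89.8 and 96.2 in siCnot1. Both siCnot1 libraries were lower, and Alkbh5 fell by 15.8%, a log2 fold change of -0.25 (SE 0.0717, edgeR adjusted p = 0.0106, 95% interval -0.40 to -0.10). The siNT libraries differed from each other by more than siNT replicate 2 differed from the siCnot1 libraries. Fto (chromosome 8, 92039995 to 92395061, plus strand) was at 79.2 and 86.2 CPM in siNT and at 84.1 and 89.1 in siCnot1. The groups overlapped, with a log2 fold change of 0.067 and a 95% interval from -0.077 to 0.21 (adjusted p = 0.519 from edgeR). The log2 ratio of Fto to Alkbh5 per kilobase was -0.17 and 0.17 in the siNT libraries and 0.32 and 0.31 in the siCnot1 libraries. Both siCnot1 libraries were thus higher, by 0.31 on average, a difference smaller than the gap between the siNT libraries. It was 0.14 without siNT replicate 1 and 0.48 without siNT replicate 2. Erasers over writers, as summed levels per kilobase, stood at a log2 ratio of -1.45 ± 0.0313 for siNT (SD, n = 2) and -1.51 ± 0.0454 for siCnot1 (SD, n = 2). The difference of -0.058 became -0.11 when counts were not divided by length, and with 1 library left out it ran from -0.026 (without siCnot1 replicate 1) to -0.090 (without siCnot1 replicate 2), with -0.036 without siNT replicate 1.

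**Figure D2:**
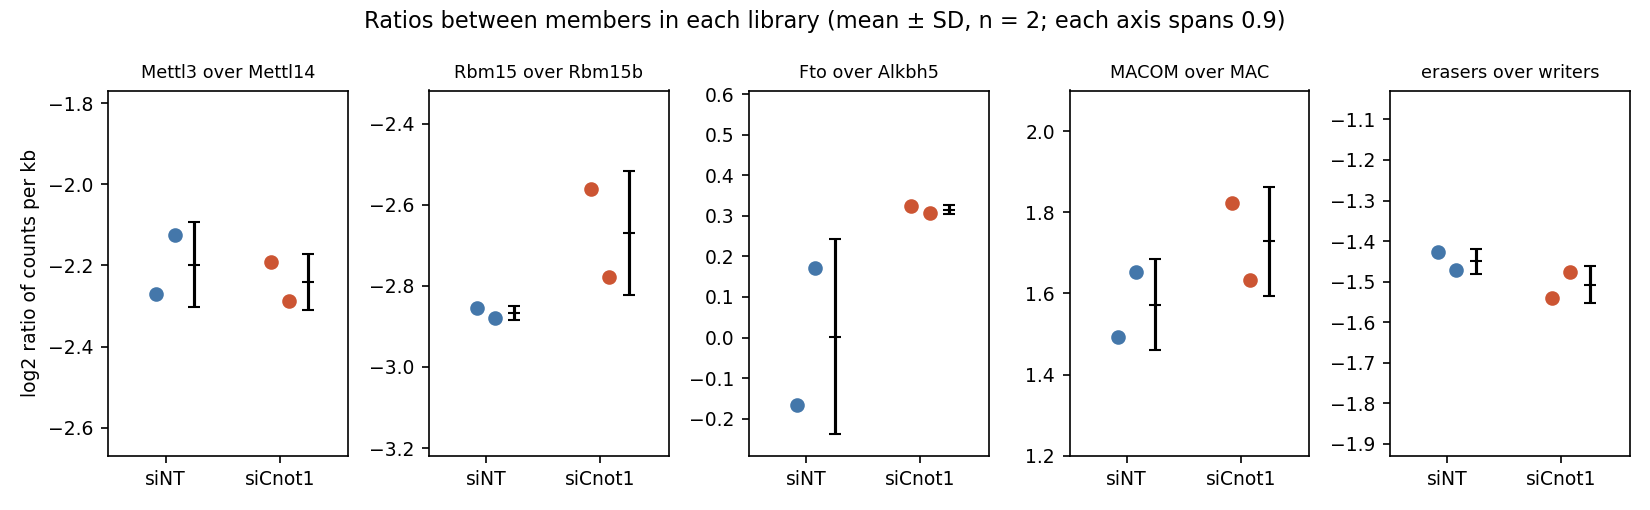
Log2 ratios of counts per kilobase (y axis, 0.9 log2 units in each panel) between members in each library (points), with the mean and SD of each group (bars, n = 2). The groups stand apart for Rbm15 over Rbm15b and Fto over Alkbh5, where siCnot1 is higher. For erasers over writers siCnot1 is lower, but the nearest libraries almost touch (-1.472 in siNT replicate 2 and -1.476 in siCnot1 replicate 2).

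Of the 4 calls, that of Rbm15 held in all 8 alternatives that kept the 4 libraries, with adjusted p from 0.000332 to 0.0379. Wtap and Alkbh5 each lost the call with library totals in place of TMM (adjusted p = 0.172 and 0.136 from edgeR) and when all genes with any count entered the fit (edgeR adjusted p = 0.0515 and 0.141). Zc3h13 lost it in 4 of the 8, with adjusted p of 0.053 with DESeq2's size factors in edgeR, 0.0779 in DESeq2, 0.0716 with the replicate number as a block and 0.211 without the filter. With 1 library left out, the lone library of its group was assumed to vary like the pair in the other. The calls of Rbm15, Wtap and Zc3h13 were then lost whichever of the 4 libraries was left out, and the log2 fold change lay between 0.29 and 0.34 for Rbm15, between -0.26 and -0.19 for Wtap and between 0.086 (without siCnot1 replicate 1) and 0.24 (without siCnot1 replicate 2) for Zc3h13. Alkbh5 was called only without siNT replicate 2 (log2 fold change -0.35, adjusted p = 0.038 from edgeR), and was at -0.14 without siNT replicate 1, -0.20 without siCnot1 replicate 1 and -0.30 without siCnot1 replicate 2. Library totals moved the median of all tested genes to 0.12. Relative to that median Rbm15 was at 0.31, Zc3h13 at 0.16, Wtap at -0.23 and Alkbh5 at -0.26. Taking off the median undoes the scaling, so these values are nearly the same under each scaling and do not restore the lost calls. For genes at or above the level of Mettl3, the median in the main fit was -0.074.

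**Figure D3:**
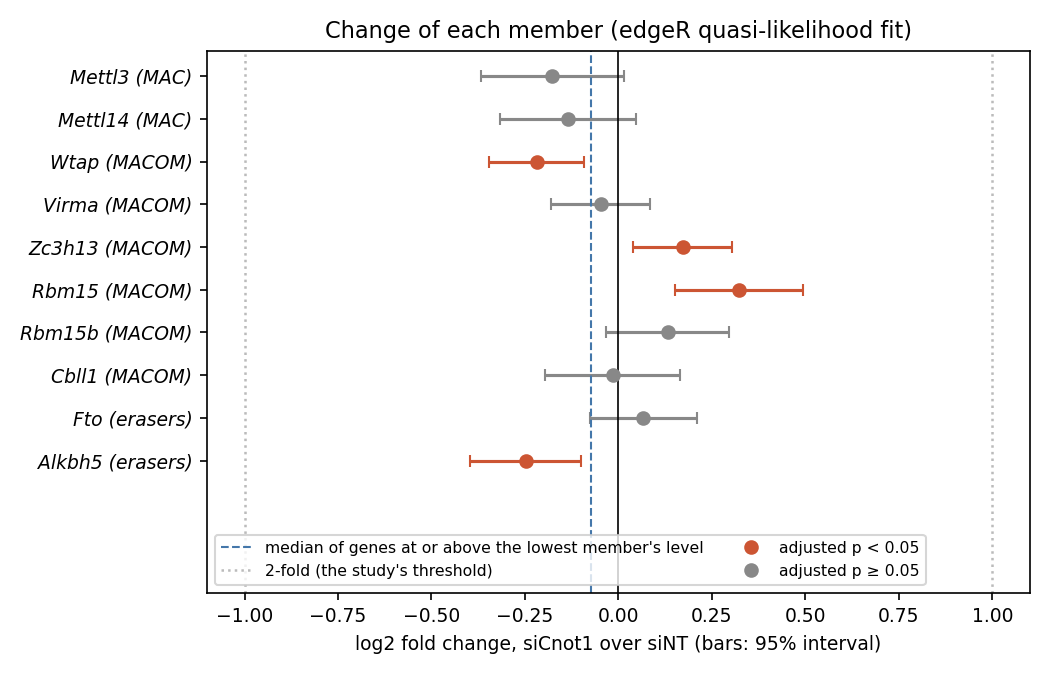
Log2 fold change of each gene, siCnot1 over siNT (x axis), with its 95% interval, coloured by whether the adjusted p was under 0.05. All intervals lie well inside the dotted lines at 2-fold, with Alkbh5 lowest at -0.25 and Rbm15 highest at 0.32.

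**Figure D4:**
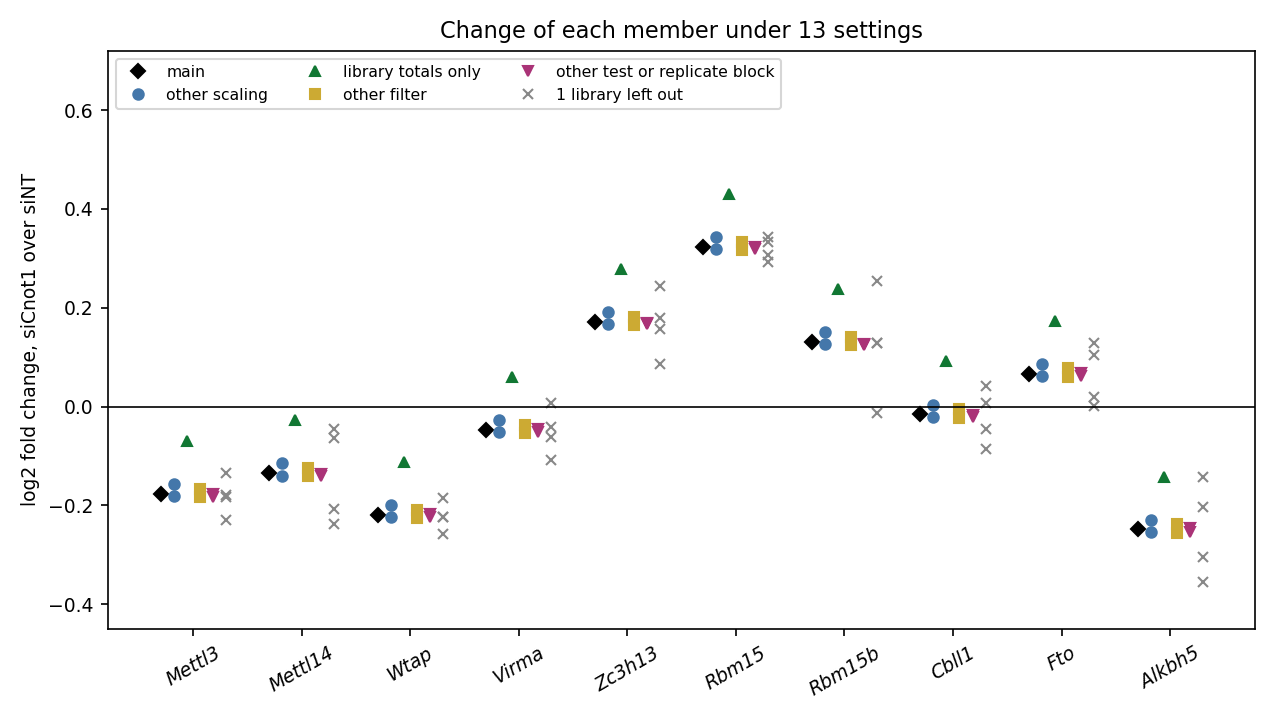
Log2 fold change of each gene (y axis) under the main fit and 12 alternatives, grouped by kind of setting. Rbm15 and Zc3h13 stay above 0 and Mettl3, Mettl14, Wtap and Alkbh5 below 0 under each setting, library totals give the highest or near-highest value for each gene, and Rbm15b, Alkbh5 and Mettl14 spread most when 1 library is left out.

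Levels of different genes were compared only per kilobase of exon. With the exon lengths listed beside the counts, the order in siNT began with Mettl14 at 20.7 ± 1.497, Zc3h13 at 19.97 ± 0.242, Wtap at 19.8 ± 0.667, Alkbh5 at 18.3 ± 1.94 and Fto at 18.3 ± 1.102 CPM per kilobase (SD, n = 2). No neighbours among these 5 differed beyond the spread of their libraries. Virma followed at 15.3 ± 0.831 and Rbm15b at 11.5 ± 0.0203, then Cbll1 at 6.81 ± 0.166, Mettl3 at 4.51 ± 0.00161 and Rbm15 at 1.57 ± 0.0224 (SD, n = 2), each below both libraries of the gene before it. In siCnot1 the same 5 genes came last in the same order from Virma on, and Zc3h13 was first at 22.5 ± 1.77 (SD, n = 2). This order depended on the gene models. The listed length of Rbm15 is 27366 bases and that of Mettl3 8117, against 4343 and 2025 bases for the longest coding transcript of each symbol in GENCODE M21. With those transcript lengths, Wtap was first in siNT at 40.8 ± 1.37, Mettl3 stood at 18.1 ± 0.00646, Rbm15 was at 9.90 ± 0.141 and Mettl14 was last at 7.56 ± 0.546 (SD, n = 2). Comparisons of 1 gene between groups do not use the length, but the listed model still sets which reads enter the count. For Mettl14 it holds 2625 bases, against 7197 for the longest coding transcript. For Rbm15 and Mettl3 the listed model is longer than the longest coding transcript, so reads from outside that transcript can enter the count.

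**Figure D5:**
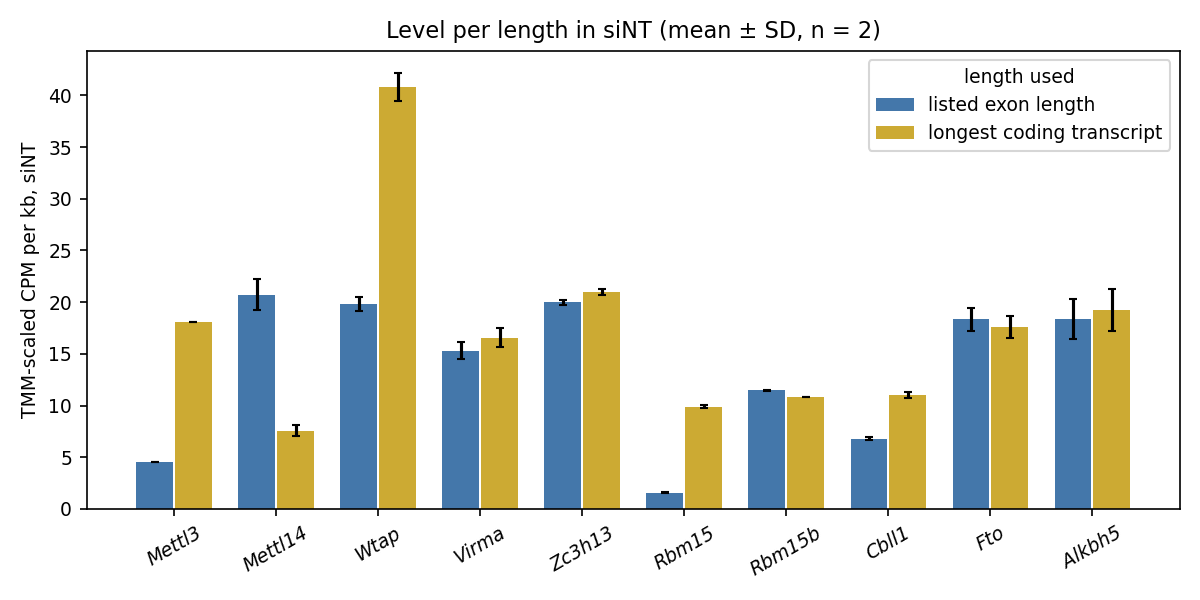
Level in siNT per kilobase (y axis, TMM-scaled CPM per kilobase, from 0) of each gene, with the listed exon length or the length of the longest coding transcript, as mean and SD (n = 2). Mettl3, Wtap and Rbm15 stand higher with transcript lengths and Mettl14 lower, while Virma, Zc3h13, Rbm15b, Fto and Alkbh5 differ little.

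Some of the genes overlap others in the deposited models. Mettl3 shares 253 exon bases with Tox4 on the opposite strand, which had 3069 to 3412 counts and a log2 fold change of -0.088 (adjusted p = 0.369 from edgeR). Rbm15b shares 65 exon bases with Dcaf1 on the opposite strand (log2 fold change -0.0064, adjusted p = 0.952 from edgeR). Rbm15 shares 984 with Slc16a4, which had at most 40 counts in a library, and Alkbh5 shares 1377 with LOC118567927, which had at most 17. The library protocol in the labels marked the second strand with dUTP, but whether counting used it is not given in the sources used here, so reads in these overlaps cannot be assigned with certainty. Of genes within 10000 bases, Sall2, whose 3′ end lies 79 bases from the Mettl3 start on the same strand, rose (log2 fold change 1.39, adjusted p = 9e-06 from edgeR) while Mettl3 was at -0.18. Sec24d, 2654 bases from Mettl14 on the opposite strand, rose as well (log2 fold change 0.61, adjusted p = 2.62e-05 from edgeR). Rad54b near Virma (0.40, edgeR adjusted p = 0.00199) and Manf near Rbm15b (0.19, edgeR adjusted p = 0.029) also rose, and Acat2 near Wtap fell (-0.25, edgeR adjusted p = 0.0135).

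The other genes of the pathway were counted by group. Of 5 YTH readers, Ythdf3 and Ythdf1, cytoplasmic readers, rose with log2 fold changes of 0.20 and 0.19 (adjusted p = 0.0161 and 0.0182 from edgeR), and no reader fell. Ythdf2 was at 22.6 and 27.1 CPM in siNT and at 23.7 and 23.0 in siCnot1 (adjusted p = 0.58 from edgeR). Of 7 other proteins linked to m6A binding, 5 fell and none rose. The largest falls were in Igf2bp2, which stabilizes bound mRNAs (log2 fold change -0.64, adjusted p = 6.45e-08 from edgeR), in Fmr1 (-0.41) and in Hnrnpc (-0.30). Of 8 genes for other RNA adenine methyltransferases and their partners, 2 fell and 1 rose. Mettl16, which methylates U6 snRNA and Mat2a mRNA, was at -0.32 (adjusted p = 0.000515 from edgeR), and Mat2a itself did not pass the test at -0.099 (adjusted p = 0.185 from edgeR). Of 7 other AlkB dioxygenases, only Alkbh6 passed, at -0.47 (adjusted p = 0.00228 from edgeR). Of 10 genes listed around the cycle that makes and recycles S-adenosylmethionine, the methyl donor, 5 fell and 1 rose. Ahcyl1, an Ahcy-like gene and not Ahcy itself, was at -0.30 (adjusted p = 0.000488 from edgeR), and the gene that rose is also Ahcy-like. Ahcy, which clears the product S-adenosylhomocysteine, was at -0.27 (adjusted p = 0.00147 from edgeR). For comparison, 15% of all tested genes were higher and 14.7% lower, and among genes at or above the level of Mettl3 14.1% were higher and 30.9% lower. The 7 binders lay at percentiles 88.4 to 99.9 of mean level among tested genes. No share was taken for that range, so neither background matches them in level. With 1 library left out, Igf2bp2, Fmr1 and Hnrnpc passed in all 4 cases, Mettl16 and Ahcyl1 in 3, Alkbh6 in 2, Ahcy in 1, and Ythdf1 and Ythdf3 in none, with log2 fold changes from 0.14 to 0.24 for Ythdf1 and from 0.15 to 0.24 for Ythdf3.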

How the data were processed

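RNA-seq counts of mouse ESCs were analysed for 2 siNT and 2 siCnot1 libraries. The authors deposited raw counts per gene with exon lengths, without normalization or pooling. The submitters' processing notes name fastp 0.19.4, HISAT2 2.2.1, DESeq2 1.40.2 and mm10. The counter is not given in the sources used here. The build of the deposited positions is not stated with them. They were read as GRCm39, an inference from the contig names and from a comparison in which both ends differed from GRCm38 for 10 of 11 genes checked. Counts were scaled by TMM and tested over all 18144 genes passing filterByExpr (minimum count 10) with edgeR 4.0.16 (quasi-likelihood, condition only, Benjamini-Hochberg) in R 4.3.3. The scripts were tested on simulated data. The standard error (SE) was obtained from the log2 fold change and the F statistic. Intervals and floors cover 2 replicates and counting error only.

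The 10 members and the gene lists were chosen with earlier results of these data known. Named genes were the 10 members, Cnot1, at most 3 genes with the smallest p of each other list, marker genes and genes within 10000 bases; Ythdf2 and Mat2a were named after their values were seen. Alternatives were other scalings, filters, DESeq2 1.42.0, limma-voom (limma 3.58.1), a replicate block and leaving out each library. The use of transcript lengths and the motif search were chosen after the data were seen.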

Additional observations from a re-analysis of the deposited data

How the results depend on the processing

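Of the 10 genes, Mettl3, Mettl14, Wtap, Zc3h13, Rbm15, Fto and Alkbh5 kept their direction under all 12 alternatives, but 1 library moved some of them widely. Fto (0.067) was at 0.0011 without siNT replicate 1, 0.019 without siCnot1 replicate 2, 0.10 without siCnot1 replicate 1 and 0.13 without siNT replicate 2. Mettl14 (-0.13) was at -0.046 without siCnot1 replicate 1, -0.065 without siNT replicate 1, -0.21 without siNT replicate 2 and -0.24 without siCnot1 replicate 2. Library totals left 3 members higher and 0 lower, gave 1567 genes lower in all (71.8% of calls higher against 50.5%), and moved the members' median from -0.032 to 0.075, with Virma at 0.060 and Cbll1 at 0.091. Upper-quartile scaling put Cbll1 at 0.0036. Without a filter on low counts, 1 member was higher and 0 lower, of 1303 and 1450 genes. DESeq2's size factors and DESeq2 each left 1 member higher and 2 lower. The replicate number as a block left 1 member higher and 2 lower, with Zc3h13 not passing. Same-numbered deviations had a correlation of 0.011 across genes, and the labels name no shared batch. Neither shows that same-numbered libraries were prepared apart, so whether they were paired is not known. Leaving out 1 library gave 0 members higher, 0 to 1 lower, 743 to 1444 genes higher and 871 to 1469 lower. The range was then -0.11 to 0.0078 for Virma (0.0078 without siNT replicate 2), -0.086 to 0.042 for Cbll1 (0.0077 without siNT replicate 2 and 0.042 without siCnot1 replicate 2) and -0.013 to 0.25 for Rbm15b (-0.013 without siCnot1 replicate 2). With 3 libraries fewer genes passed throughout; the other causes were not tested. With 2 libraries per group, half-widths of the members' 95% intervals were 0.13 to 0.19 on the log2 scale. A change smaller than its half-width could not be told from 0. The half-width is not a limit of detection, since calls used the adjusted p and larger changes could be missed as well.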
